A study of Saccharomyces cerevisiae with 12 samples.

Results

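The mitochondrial ribosomal protein genes of *Saccharomyces cerevisiae* were followed by RNA-seq in cells grown with the antifungal protein PeAfpA. The set was made of every gene whose standard name in the R64 annotation is MRPL, MRPS, MRP or RSM followed directly by a number, a choice that uses no measured value. The annotation holds 67 such genes, all 67 were among the 6600 features of the count table, and all 67 passed the filter on low values that left 5903 genes for testing. Of these, 38 encode proteins of the large subunit and 28 of the small subunit. The last one, *MRP8*, carries the name but was only thought to be a mitoribosomal protein from its sequence, and it was kept apart from both subunits.

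PeAfpA is a small cationic protein secreted by *Penicillium expansum* that acts on fungi. Haploid BY4741 cells were grown in 5% YPD (yeast extract, peptone and dextrose) for 20 h at 30 °C without the protein (control) or with 1, 2 or 4 µg/mL PeAfpA present from the start, with 3 replicate flasks per condition. BY4741 lacks *HIS3*, *LEU2*, *MET17* and *URA3* activity. *LEU2*, *MET17* and *URA3* had 0 counts in all 12 libraries, while *HIS3*, whose deletion in this background is partial, had between 381 and 649. The labels call the source mycelia, although this yeast grows as single cells.

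The mitochondrial ribosome translates the few messages of the mitochondrial genome, which encode core subunits of the respiratory chain and of the ATP synthase. Nearly all of its proteins are encoded in the nucleus, made in the cytosol and imported. Some descend from bacterial ribosomal proteins, and others were added in mitochondria. In yeast, many of their messages carry a binding element for Puf3, an RNA-binding protein that in glucose medium speeds the decay of messages for mitochondrial biogenesis.

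Counts per gene summed to between 7153797 and 10270183 per library, and single members had between 184 and 4103 counts. Some libraries stood apart from their own group. The mean squared difference between libraries, relative to counting error, was 177 and 192 between 1 µg/mL replicate 1 and its partners but 13.4 between these. It was 198 and 136 for 4 µg/mL replicate 3 but 26.1 between the other two, and 119 and 79.5 for 2 µg/mL replicate 3 but 31.1 between the other two. Cytosolic ribosomal protein genes took 14.2%, 16.6% and 25.4% of the TPM, the share of transcripts after correction for gene length, at 4 µg/mL, against 12.1%, 10.7% and 11.6% in control. Counts were therefore scaled with TMM factors, which set the typical gene as the reference, and each value below is relative to it. A change in RNA per cell and a change in the rest of the RNA cannot be told apart in such data.

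A feature that nearly all of these genes shared lay in the sequence that follows the reading frame. The Puf3 element was searched as TGTANATA, where N is any base, on the coding strand within 200 bases after the stop codon. It was found in 65 of the 67 genes (97%), against 844 of 5898 nuclear protein-coding genes (14.3%). All 38 genes of the large subunit held it, and 27 of the 28 of the small subunit. The 2 genes without it were *MRP8* and *RSM22*, which encodes a small-subunit protein also predicted to be an RNA methyltransferase. In total 79 sites were found, at 8 to 165 bases after the stop codon with a median of 55, and 52 genes had 1 site, 12 had 2 and 1 (*RSM19*) had 3. The variable base N was A in 36 sites, T in 25, C in 17 and G in 1. A C stood 2 bases before the element, a position that Puf3 is known to read, in 52 of the 79 sites (65.8%), against 256 of 914 sites over all genes (28%).

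The 10 sites below belong to genes that rose at 4 µg/mL (*MRPL50*, *MRPL3*, *MRP2*, *MRPL8*) and to the genes with the 3 lowest log2 fold changes there (*MRPL28*, *MRPS16*, *MRPL4*). They are shown to set the element side by side in genes that rose and in genes at the low end of the order. *MRPL8* (0.49) was not among the largest rises. Of the 3 lowest, *MRPL4* did not pass the test. Each is the 30-base window of the coding strand that holds the element, in capitals, read 5′ to 3′ as DNA from the R64 reference of RefSeq. The *MRPL50* site lies at chrXIV:669719-669748 on the minus strand, the *MRPL3* sites at chrXIII:323054-323083 and chrXIII:323089-323118 on the plus strand, the *MRP2* site at chrXVI:876214-876243 on the minus strand and the *MRPL8* site at chrX:315714-315743 on the minus strand. The *MRPL28* sites lie at chrIV:1386537-1386566 and chrIV:1386593-1386622 on the plus strand, the *MRPS16* sites at chrXVI:528881-528910 and chrXVI:528840-528869 on the minus strand and the *MRPL4* site at chrXII:1015467-1015496 on the plus strand.
MRPL50: gcgtacaatctTGTATATAggcaacatcgc
MRPL3: gtttgccatttTGTAGATAgagaactcctt
MRPL3: gaatacattctTGTACATAtatatatacac
MRP2: ggatacgcactTGTAAATAaatacatgata
MRPL8: gtgtattccctTGTAAATAtatagatgaca
MRPL28: ctgtctcctgcTGTAAATAactgatgatca
MRPL28: atataattataTGTACATAgacatataaag
MRPS16: tatgtatatgtTGTATATAtgttttacttg
MRPS16: tctatcagactTGTAAATAatacatctatg
MRPL4: accctctctccTGTAAATAtatatatatat
These are all the sites of the 7 genes, each gene's nearer site first. The first *MRPL3* site is the single one with G inside the element, and the element reads TGTAAATA in 5 of the 10 sites.

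Levels were compared between genes as TPM, which accounts for gene length. Mean TPM over the 12 libraries had a median of 103 in the large subunit and 115 in the small subunit, and the highest member was 9-fold above the lowest. The highest was *MRP8* (393 TPM), which is no ribosomal component. In the large subunit *MRPL51* (327 TPM), a protein without a bacterial counterpart, and *MRPL33* (321 TPM), the uL30m protein, came first on this mean. *MRPL51* had 352, 359 and 343 TPM in control and *MRPL33* 340, 362 and 344 TPM, so these neighbours overlapped. *MRPL51* overlaps *YPR099C* on the opposite strand over 76.4% of its length, and because the libraries did not mark strand, reads of both cannot be told apart. In the small subunit *MRPS16* (331 TPM), the bS16m protein, and *MRPS12* (289 TPM), the uS12m protein of the decoding centre, came first on this mean. The order differed by condition. At 4 µg/mL *MRPL39* (346 TPM) was first in the large subunit, with *MRPL51* and *MRPL33* at 264 TPM each. In the small subunit *MRPS12* (249 TPM) was above *MRPS16* (214 TPM). The mean of *RSM18* (233 TPM) was also above that of *MRPS16*, but only replicate 3 had this order. *RSM18* had 270, 237 and 194 TPM in the 4 µg/mL libraries, and *MRPS16* had 275, 245 and 121 TPM. The lowest were *MRPL3* (47.1 TPM) in the large and *RSM22* (43.6 TPM) in the small subunit, and their control libraries overlapped.

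At 4 µg/mL a group of mitoribosomal genes was higher than in control, by small amounts, and the number depended on the scaling and on single libraries, as given further on. With edgeR's quasi-likelihood test over all genes and a Benjamini-Hochberg adjusted p under 0.05, 33 of the 67 (49.3%) rose and 2 (2.99%) fell, where 19.3% of all genes rose and 23% fell. The median log2 fold change was 0.33 over the members, a 1.26-fold difference, and -0.04 over all genes, and 54 of the 67 estimates were above 0. The 3 libraries at 4 µg/mL were all above the 3 controls for 42 members and all below for 4, where 27.5% and 31.7% of all genes did so. All 33 genes that rose and both that fell were among these. Single changes ran from -0.78 to 0.92 on the log2 scale, so no estimate reached 2-fold.

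**Figure D1:**
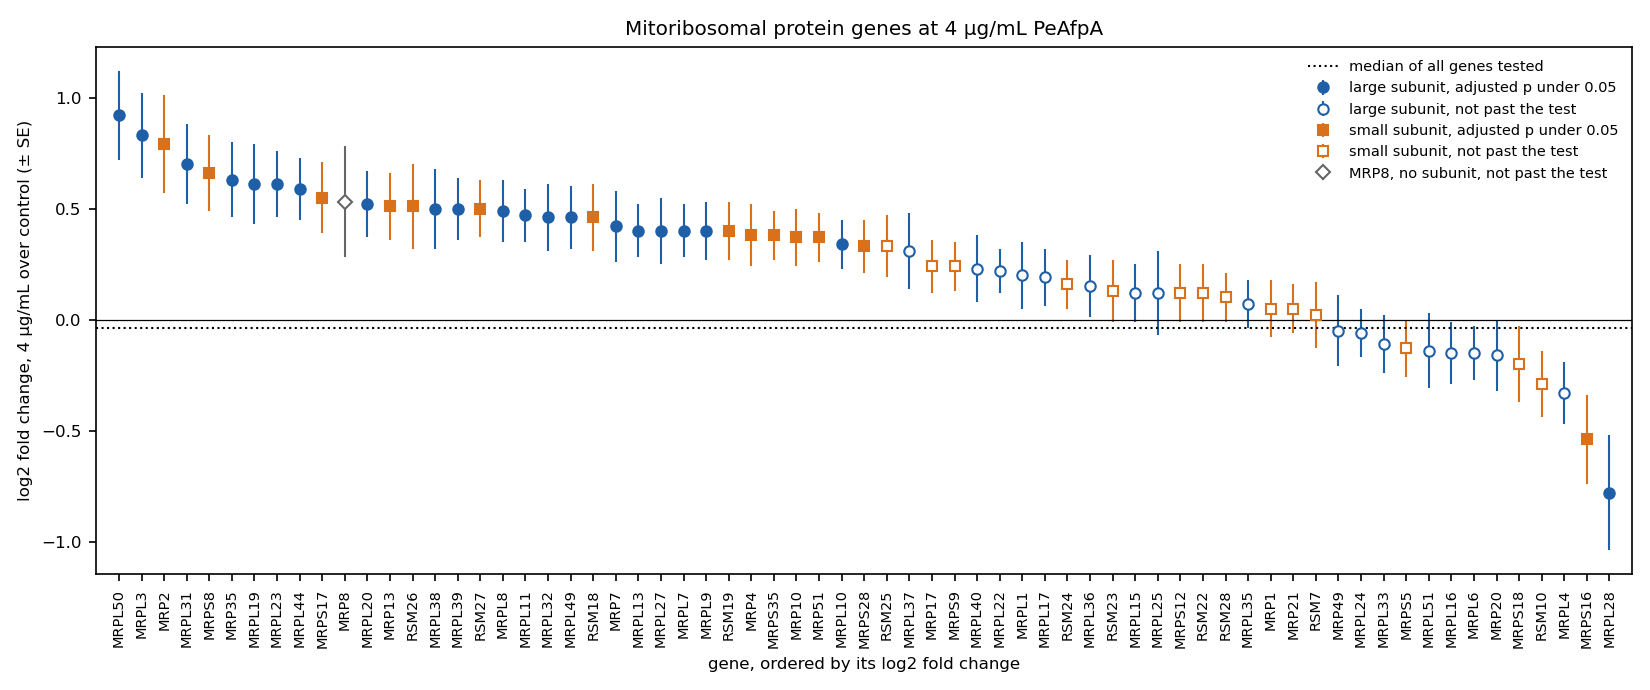
Log2 fold change of each of the 67 genes at 4 µg/mL PeAfpA over control, with its standard error, ordered by size; circles are large-subunit genes, squares small-subunit genes, the diamond *MRP8*, and filled symbols passed an adjusted p under 0.05. The 33 filled symbols above 0 run down to 0.33 and both subunits are mixed along the order, with *MRPS16* and *MRPL28* alone as filled symbols below 0.

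The rise was spread over both subunits and over old and new proteins. In the large subunit 20 of 38 rose and 1 fell (median 0.37), and in the small subunit 13 of 28 rose and 1 fell (median 0.29). Among large-subunit proteins with a bacterial counterpart 14 of 24 rose and none fell (median 0.40), and among those without one 6 of 14 rose and 1 fell (median 0.25). Among small-subunit proteins with a bacterial counterpart 8 of 17 rose and 1 fell (median 0.24), and among those without one 5 of 10 rose and none fell (median 0.35). All 10 of this last class had a log2 fold change above 0. The differences between these classes were not tested.

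*MRPL50*, which encodes the bL9m protein and is not essential for mitochondrial translation, rose most. Its normalized counts were 934, 881 and 1189 at 4 µg/mL, against 527, 609 and 447 in control. The libraries did not overlap, and the log2 fold change was 0.92 (SE 0.20, adjusted p = 0.00504). *MRPL3* encodes mL44, a mitochondrial addition close to the exit of the polypeptide tunnel. It had 722, 781 and 990 normalized counts at 4 µg/mL, against 414, 561 and 426 in control, again without overlap, and rose by 0.83 (SE 0.19, adjusted p = 0.00589). *MRPL31*, for the mitochondrial addition mL60, had 1055, 1020 and 1148 at 4 µg/mL, against 657, 712 and 611 in control. Each treated library was above each control, with a log2 fold change of 0.70 (SE 0.18, adjusted p = 0.00956). *MRP35*, for bL35m, had 337, 300 and 370 at 4 µg/mL, against 195, 225 and 231 in control, and rose by 0.63 (SE 0.17, adjusted p = 0.0141).

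In the small subunit *MRP2*, for uS14m, changed most. It had 913, 853 and 895 normalized counts at 4 µg/mL, against 532, 560 and 447 in control, and the groups were far apart. Its log2 fold change was 0.79 (SE 0.22, adjusted p = 0.0147). *MRPS8*, for uS8m, had 335, 347 and 440 at 4 µg/mL, against 241, 260 and 207 in control, and rose by 0.66 (SE 0.17, adjusted p = 0.00898). Replicate 3 was the highest of the 4 µg/mL libraries for *MRPL50*, *MRPL3*, *MRPL31*, *MRP35* and *MRPS8*, but not for *MRP2*.

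Only *MRPL28* and *MRPS16* fell past the test. *MRPL28*, for the mitochondrial addition mL40, had 415, 388 and 272 normalized counts at 4 µg/mL, against 566, 729 and 548 in control, and fell by 0.78 on the log2 scale (SE 0.26, adjusted p = 0.0324). *MRPS16*, the highest small-subunit message in control by mean TPM, had 1041, 975 and 626 at 4 µg/mL, against 1245, 1444 and 1147 in control, and fell by 0.54 (SE 0.20, adjusted p = 0.0427). Neither gene's groups overlapped, and replicate 3 was the lowest library for both. *MRPL4*, for the tunnel-exit protein uL29m, came next with 646, 598 and 575 at 4 µg/mL, against 735, 796 and 761 in control (log2 fold change -0.33, SE 0.14, adjusted p = 0.0678), which did not pass the test although the groups did not overlap.

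Of the most and least abundant members, *MRPL51* (-0.14, SE 0.17), *MRPL33* (-0.11, SE 0.13), *MRPS12* (0.12, SE 0.13) and *RSM22* (0.12, SE 0.13) did not pass the test at 4 µg/mL, and the libraries of each overlapped those of control. *MRPL51* had 1404, 1383 and 1022 normalized counts at 4 µg/mL, against 1378, 1537 and 1272 in control, and *MRPL33* had 840, 810 and 721, against 822, 956 and 786. *MRPS12* had 1329, 1341 and 1302 at 4 µg/mL, against 1176, 1408 and 1061 in control, and *RSM22* had 868, 832 and 1026, against 833, 771 and 904. Of the 2 highest messages of each subunit by TPM over the 12 libraries, *MRPS16* fell and none rose. *MRP8* had 2861, 3703 and 4543 at 4 µg/mL, against 2303, 3151 and 2264 in control, with a log2 fold change of 0.53 (SE 0.25, adjusted p = 0.106) and overlap between the groups.

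**Figure D2:**
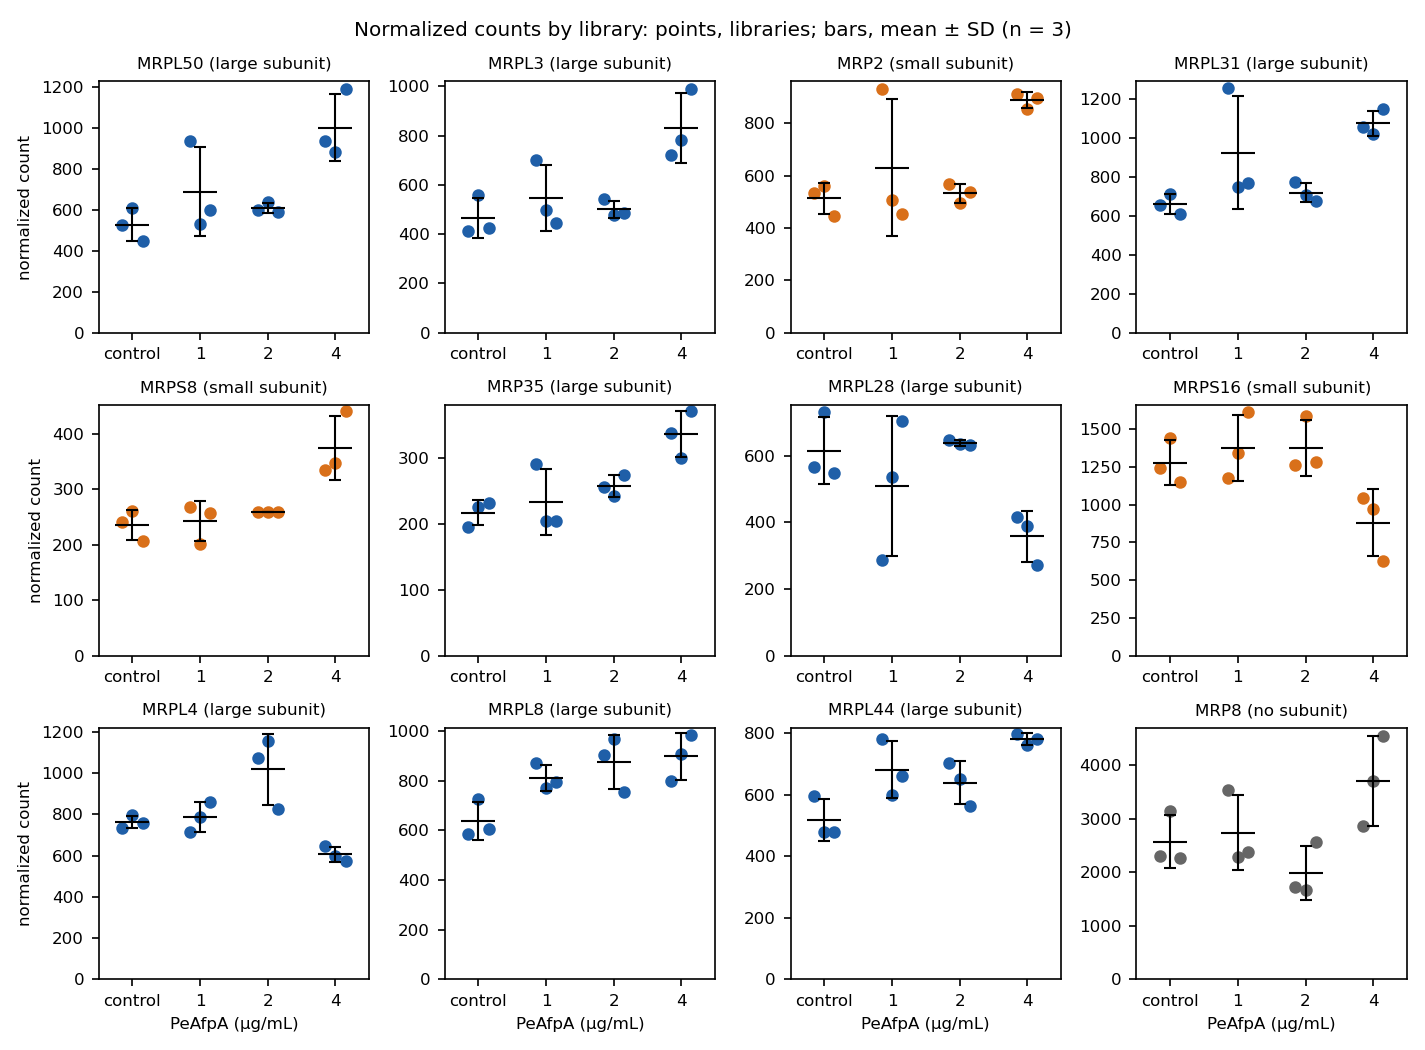
Normalized counts of 12 named genes in each library (points) by PeAfpA concentration, with mean ± SD of the 3 libraries of each condition; colours separate large-subunit, small-subunit and unassigned genes. *MRPL50* has 934, 881 and 1189 normalized counts at 4 µg/mL, above all its controls, and at 1 µg/mL a single library (replicate 1, 935) lies apart from the other two.

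The count of genes past the test depended on single libraries. It was 14 higher and 0 lower without 4 µg/mL replicate 3, 21 and 0 without replicate 2, and 22 and 2 without replicate 1. Without control replicates 1, 2 and 3 in turn it was 17, 21 and 16 higher with 0 lower. The number of all genes past the test was not counted in these fits, so the change is not shown to be particular to the members. The medians moved less, and without 4 µg/mL replicate 3 they were 0.31 in the large and 0.26 in the small subunit. *MRPL3*, *MRPL23*, *MRPL31*, *MRPL50* and *MRPS8* were the 5 genes that passed the test as higher under all 20 alternative settings. With library totals alone and no TMM factor the median of all genes was -0.23. Then 6 of the 67 members rose and 4 fell, where 756 of the 5903 genes rose and 1570 fell. The share of members that rose was thus no longer above that of all genes. A TMM factor moves every gene of a library alike, so the distance of the members from the median of all genes, 0.37, is the same by construction.

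Both subunits were then compared with each other within each library. The summed TPM of the large subunit over that of the small one was 1.31, 1.33 and 1.36 at 4 µg/mL, against 1.28, 1.29 and 1.27 in control (1.333 ± 0.0236 and 1.278 ± 0.00929, SD, n = 3 each). The libraries did not overlap, and no test is given for this score. At 1 µg/mL the ratio was 1.26, 1.23 and 1.24, below all controls, and at 2 µg/mL 1.32, 1.30 and 1.29. The difference at 4 µg/mL depended on single abundant genes, chosen after their values were seen. Without *MRPS16* the ratio was 1.41, 1.42 and 1.42 at 4 µg/mL, against 1.41, 1.44 and 1.40 in control, so that the groups overlapped, with a difference of 0.001 in place of 0.055. Without the 3 genes that overlap another gene (*MRPL51*, *MRPL19* and *MRP4*) the difference was 0.074, and without *MRPS16* and *MRPL51* together it was 0.025.

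As a share of all TPM the members gave another picture. The genes of both subunits, without *MRP8*, took 0.94%, 0.885% and 0.693% at 4 µg/mL, against 0.867%, 0.87% and 0.901% in control, and the groups overlapped. The lowest share was in replicate 3, in which cytosolic ribosomal protein genes took 25.4%. The median member of the large subunit lay 0.28, 0.28 and 0.40 above the control mean on the log2 scale in the 4 µg/mL libraries, and that of the small subunit 0.25, 0.23 and 0.29. The share and the scaled counts answer different questions, since the share falls when other abundant messages rise.

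**Figure D3:**
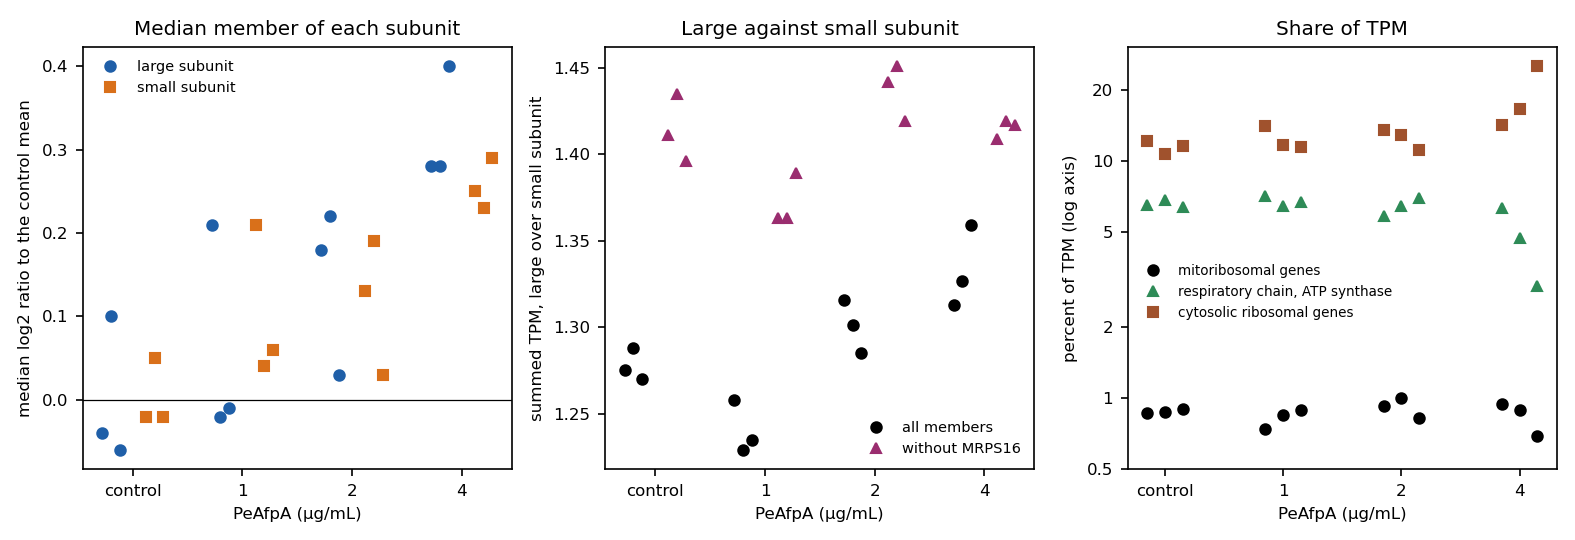
By library and PeAfpA concentration: the median log2 ratio to the control mean of each subunit (left), the summed TPM of the large over the small subunit with and without *MRPS16* (middle, axis not from 0), and the percent of TPM in 3 gene groups on a log axis (right). All 6 subunit medians at 4 µg/mL lie between 0.23 and 0.40, and the ratio without *MRPS16* is between 1.41 and 1.42 there, within the control range.

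The 4 and 2 µg/mL conditions were compared directly, since the protein was present in both. At 4 µg/mL 11 members (16.4%) were higher than at 2 µg/mL and 4 (5.97%) were lower, where 15.4% of all genes were higher and 18.8% lower, so that the share higher was near that of all genes. The medians were 0.20 in the large and 0.14 in the small subunit, and 0.00 over all genes. *MRPL50* (0.72, adjusted p = 0.0198), *MRPL3* (0.73, adjusted p = 0.0144), *MRP2* (0.74, adjusted p = 0.0253), *MRPL31* (0.58, adjusted p = 0.0278) and *MRPS8* (0.53, adjusted p = 0.0305) were again higher, and *MRPL28* (-0.83, adjusted p = 0.0313) and *MRPS16* (-0.64, adjusted p = 0.0263) lower. *MRP8* was also higher, with 2861, 3703 and 4543 normalized counts at 4 µg/mL against 1716, 1659 and 2569 at 2 µg/mL, without overlap (0.90, SE 0.25, adjusted p = 0.0185). Without 4 µg/mL replicates 1, 2 and 3 in turn the counts were 11, 6 and 1 higher with 4, 2 and 1 lower. Without 2 µg/mL replicates 1, 2 and 3 in turn they were 2, 2 and 5 higher with 2, 1 and 3 lower. The number of all genes past the test was not counted in these fits either. Under all 20 alternative settings 0 of the 11 higher genes and 1 of the 4 lower genes passed each time.

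*MRPL4* lay on opposite sides of control at 4 and at 2 µg/mL. It had 646, 598 and 575 normalized counts at 4 µg/mL, against 1074, 1156 and 828 at 2 µg/mL, with control at 735, 796 and 761 between them. All 3 libraries at 2 µg/mL were thus above, and all 3 at 4 µg/mL below, every control, and the log2 fold change of 4 over 2 µg/mL was -0.75 (SE 0.14, adjusted p = 0.00329). *MRPL4* passed the test as lower under all 20 alternative settings. *MRP20*, for uL23m, a neighbour of uL29m at the tunnel exit, was singled out after its values were seen because it had the same order. It had 1541, 1474 and 1469 at 4 µg/mL, against 2079, 2504 and 1776 at 2 µg/mL, and control had 1630, 1712 and 1657 (log2 fold change of 4 over 2 µg/mL -0.50, SE 0.16, adjusted p = 0.0290).

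At 2 µg/mL no member passed edgeR's adjusted threshold against control. At an unadjusted p under 0.05, 6 members were higher and 0 lower, where 4.47% and 5.22% of all genes were. DESeq2 called 0 members, and limma-voom with sample quality weights called 10 higher and 1 lower. The share of all genes that limma-voom called was not counted, so its calls cannot be read as particular to the members. No gene of the whole table passed edgeR's adjusted threshold at this concentration, although the paper, with DESeq2, reported differentially expressed genes there. The groups did not overlap for 9 members, all higher, where 8.67% of all genes were higher and 9.22% lower in this way. The medians were 0.12 in the large and 0.10 in the small subunit, and 57 of 67 members were above 0. Without 2 µg/mL replicate 3 they were 0.19 and 0.17, and 1 member passed.

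*MRPL8*, for bL17m, had the smallest p at 2 µg/mL. It had 906, 968 and 754 normalized counts, against 585, 725 and 606 in control, without overlap (0.46, SE 0.14, unadjusted p = 0.00607, edgeR adjusted p = 0.406). It stayed at 800, 911 and 986 at 4 µg/mL (0.49 over control, adjusted p = 0.0148) and was thus at about the same level at both concentrations. At 1 µg/mL, where it was also among the 3 smallest p, it had 872, 771 and 797, above every control. *MRPL4* had the next smallest p at 2 µg/mL (0.42, SE 0.14, adjusted p = 0.433). *MRP4*, for uS2m, had 1472, 1609 and 1123 at 2 µg/mL, against 1054, 1140 and 1127 in control (0.34, SE 0.14, adjusted p = 0.486). Its replicate 3 lay within the controls.

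At 1 µg/mL edgeR again called 0 members, and DESeq2 and limma-voom also called 0. At an unadjusted p under 0.05, 4 members were higher and 1 lower, where 4.83% and 4.25% of all genes were. The groups did not overlap for 10 members, all higher, where 7.54% of all genes were higher and 8.5% lower in this way. The medians were 0.10 in the large and 0.12 in the small subunit, but -0.09 and -0.05 with library totals alone, a scaling that put the median of all genes at -0.18. Without 1 µg/mL replicate 1 the medians were 0.01 and 0.05.

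The members of 1 µg/mL replicate 1 stood apart from those of its partners. In it 44 members were above all 3 controls and 10 below, where 35.5% of all genes were above and 38.8% below. In replicate 2, 17 were above and 13 below (22.2% and 24.3% of all genes), and in replicate 3, 21 above and 14 below (24.4% and 27.3%). In the 2 µg/mL libraries 39, 47 and 13 were above (30.3%, 32.7% and 22.5% of all genes) and 8, 5 and 8 below (35.1%, 35.1% and 21.9%). In the 4 µg/mL libraries 47, 45 and 48 were above (34.1%, 35.4% and 40.6% of all genes) and 5, 6 and 11 below (39.2%, 40.6% and 43.9%). A count such as 44 was thus also seen at 2 µg/mL. Replicate 1 at 1 µg/mL lay apart from its partners over all genes, not over the members alone. *MRPL50* had 935 normalized counts in it but 530 and 597 in the other 1 µg/mL libraries. *MRP2* had 931 there but 507 and 452 in the others, and *MRPL28* had 288 but 536 and 704. *MRPL44*, for mL53, had the smallest p at 1 µg/mL with 782, 600 and 660, against 597, 478 and 480 in control, all above the highest control but replicate 2 by little (0.39, SE 0.14, adjusted p = 0.491). *MRPL31* had 1257, 749 and 767 at 1 µg/mL, against 657, 712 and 611 in control (0.49, SE 0.18, adjusted p = 0.491). The 3 comparisons with control share the same 3 control libraries.

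**Figure D4:**
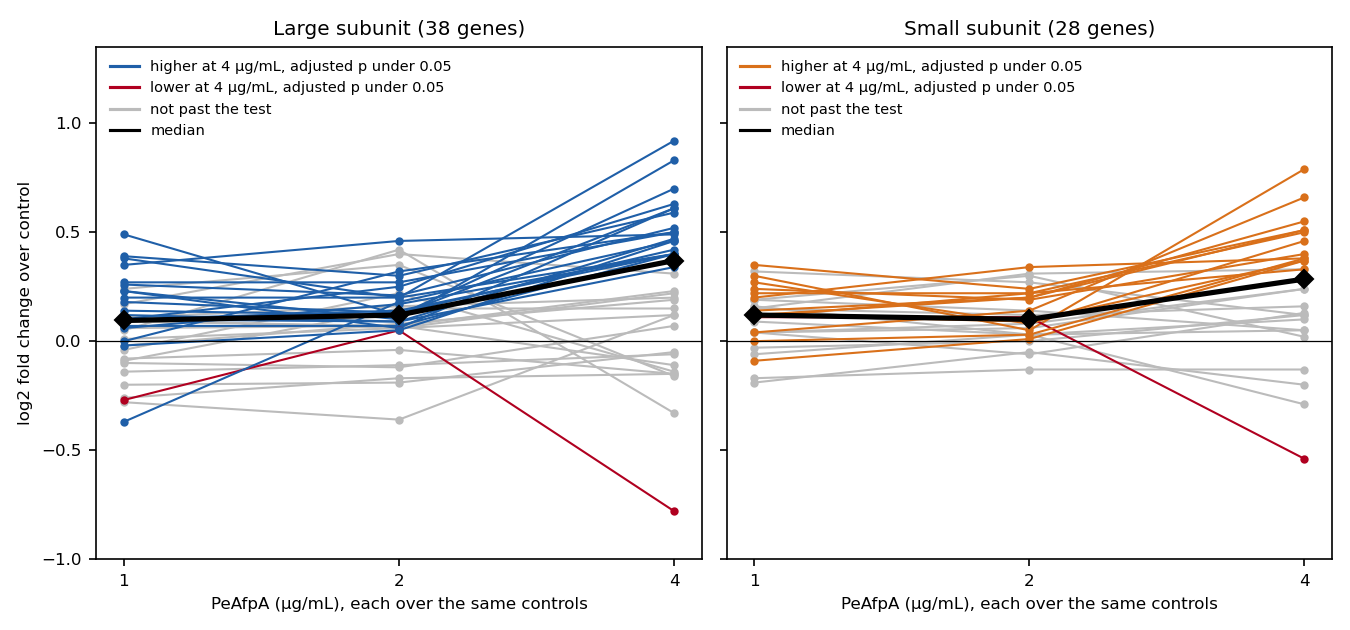
Log2 fold change over control of each large-subunit gene (left) and small-subunit gene (right) at 1, 2 and 4 µg/mL PeAfpA, joined by lines, with the subunit's median in black; colour marks genes past an adjusted p under 0.05 at 4 µg/mL. The medians are 0.10, 0.12 and 0.37 in the large and 0.12, 0.10 and 0.29 in the small subunit, and *MRPL28* and *MRPS16* are the lowest lines of their subunits at 4 µg/mL.

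Most members varied together across the libraries. Over the 12 libraries the correlation of a member's log2 value with the median of the other members had a median of 0.75 and was above 0.5 for 45 members. It was below 0 for 13, with *MRPL28* (-0.74) and *MRPS16* (-0.62) the farthest, followed by *MRPL16* (-0.49), the uL16m protein. These values are descriptive, since they share the scaling and the condition means. Within a condition the median coefficient of variation was 7.49% at 4 µg/mL and 8.45% in control.

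The other genes of mitochondrial translation were set beside the members at 4 µg/mL, without a test of the difference between lists. Over all genes 19.3% rose and 23% fell, and the shares of each list are given to be read against these. Of 13 mitoribosomal proteins with other names that were tested, 4 (30.8%) rose and 1 (7.69%) fell (median 0.21). *MNP1*, for the bL12m stalk protein, had 1438, 1459 and 1712 normalized counts at 4 µg/mL, against 887, 1058 and 896 in control (0.70, adjusted p = 0.00708). *EHD3*, a hydroxyisobutyryl-CoA hydrolase also found on the small subunit, had 1220, 975 and 996, against 1861, 1984 and 2151 (-0.91, adjusted p = 0.00101). The groups of neither gene overlapped. *VAR1*, encoded in the mitochondrial genome, did not pass the filter on low values.

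Of 9 mitoribosome assembly factors 1 (11.1%) rose and 3 (33.3%) fell (median -0.32). The one that rose, *MAM33*, is also in the list of translational activators. *MRM2*, a methyltransferase of the large ribosomal RNA, had 462, 389 and 328 at 4 µg/mL, against 547, 636 and 620 in control (-0.61, adjusted p = 0.00946), and *MTG2*, a GTPase of large-subunit assembly, had 348, 335 and 241, against 459, 384 and 500 (-0.54, adjusted p = 0.0324). Of 12 translation factors 2 (16.7%) rose and 2 (16.7%) fell (median -0.20). The recycling factor *RRF1* had 446, 418 and 449 at 4 µg/mL, against 278, 288 and 275 in control (0.64, adjusted p = 0.00727), while *MEF2*, the elongation factor G relative that acts with it in recycling, had 737, 616 and 514, against 1007, 869 and 921 (-0.58, adjusted p = 0.0101). None of these 4 genes had overlapping groups.

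Of 17 aminoacyl-tRNA synthetases and related enzymes none rose and 3 (17.6%) fell, the last share below that of all genes (median -0.11). The 2 with the smallest p, *GTF1* and *PET112*, encode subunits of the same amidotransferase that makes glutaminyl-tRNA. *GTF1* had 556, 471 and 330 normalized counts at 4 µg/mL, against 936, 1217 and 933 in control (-1.18, adjusted p = 0.00512), and *PET112* had 384, 292 and 207, against 480, 556 and 532 (-0.82, adjusted p = 0.0145). The treated libraries of both were below every control. Of 18 translational activators 2 (11.1%) rose and 4 (22.2%) fell, near the share of all genes (median -0.12), with *CBS1*, an activator of cytochrome b translation, at 173, 183 and 131 normalized counts at 4 µg/mL, against 258, 272 and 261 in control (-0.69, adjusted p = 0.00699), and *PET494*, an activator of *COX3* translation, at 520, 549 and 453, against 766, 687 and 711 (-0.51, adjusted p = 0.0119).

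The list of respiratory chain and ATP synthase genes, some of them outside the complexes that hold products of this ribosome, had a median below 0. Of 43 genes 1 (2.33%) rose and 12 (27.9%) fell (median -0.25), where 19.3% and 23% of all genes did. The group took 6.32%, 4.73% and 2.98% of the TPM at 4 µg/mL, against 6.51%, 6.84% and 6.4% in control. *COX5B*, the isoform of a cytochrome c oxidase subunit used when oxygen is low, had 951, 1220 and 897 at 4 µg/mL, against 380, 425 and 414 in control (1.33, adjusted p = 0.000105). *NDE2*, an external NADH dehydrogenase, had 370, 321 and 168, against 3419, 4619 and 2982 (-3.67, adjusted p = 0.000333). Both pairs of groups were clearly separate. Of 138 cytosolic ribosomal protein genes 123 (89.1%) rose and none fell, with a median of 1.04, although many of them are near-identical pairs whose reads cannot be told apart with certainty.

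Among 8 regulators of mitochondrial genes 1 (12.5%) rose and 3 (37.5%) fell. *PUF3* itself had 337, 397 and 441 normalized counts at 4 µg/mL, against 288, 233 and 280 in control (0.55, SE 0.15, adjusted p = 0.0143), without overlap. *HAP4*, the activating subunit of the complex that binds CCAAT in front of respiratory genes, had 5566, 3732 and 5167, against 9947, 7932 and 8566, also without overlap (-0.87, adjusted p = 0.0245). CCAAT, searched on both strands from 250 bases before to 50 after the start of the reading frame, was in 41.8% of the members' promoters, against 43.8% of all genes and 81.4% of the respiratory genes. AATTTT, an element found in front of growth genes and searched likewise, was in 41.8% of the members and 52.4% of all genes.

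The Puf3 element was also frequent in other genes of mitochondrial translation. It was in all 13 mitoribosomal genes with other names, 94.1% of the synthetase list, 83.3% of the translation factors and 77.8% of both the assembly factors and the activators. It was in 14% of the respiratory genes and 3.79% of 132 cytosolic ribosomal protein genes, a narrower list than the 138 compared above. Over all genes the median log2 fold change at 4 µg/mL was 0.01 with the element and -0.03 without it. A match of these letters is a description and not a shown binding site.

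**Figure D5:**
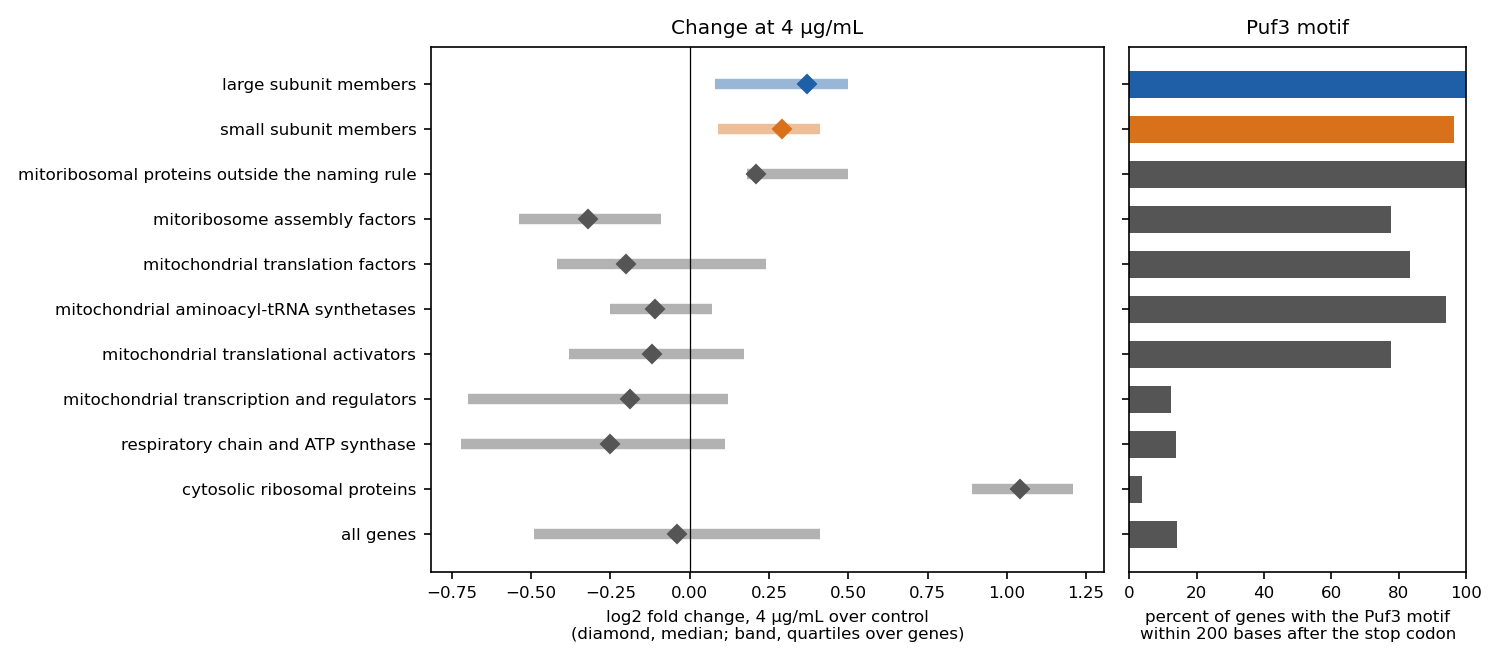
Left, log2 fold change at 4 µg/mL over control for each gene list, with the median as a diamond and the quartiles over genes as a band; right, percent of each list's genes with the Puf3 element within 200 bases after the stop codon. The large and small subunits sit at 0.37 and 0.29, the assembly factors at -0.32 and the cytosolic ribosomal proteins at 1.04 in the left panel. In the right panel 77.8% of the assembly factors and 3.79% of 132 cytosolic ribosomal protein genes hold the element, where the left panel covers 138 of the latter.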

How the data were processed

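The authors deposited raw counts per gene for 12 libraries (unit: counts). Per their methods and processing notes, single-end reads of TruSeq v2 libraries, which do not mark strand, were trimmed with Trimmomatic 0.39, mapped to the R64 genome with Bowtie2 2.3.2 and counted with HTSeq 0.9.0. Their counting settings are not given in the sources used here. Of 6600 features 5917 matched the annotation by locus name, and the 683 others held between 0.172% and 0.323% of a library.

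Genes with a mean of at least 1 TPM (computed from counts and coding length, or CPM where no length was known, 247 genes) were kept, after the authors' filter. All 4 conditions were fitted together in edgeR 4.0.16 (R 4.3.3) with TMM factors, between 0.8082 and 1.122, and the quasi-likelihood test. The p-values were adjusted over 5903 genes. edgeR stands in for the DESeq2 of the study, and DESeq2 1.42.0 and limma 3.58.1 were alternatives. Normalized counts are counts divided by the effective library size and scaled to a common one. An exact permutation test of 3 against 3 libraries cannot go below 0.1 and is not printed. Tested on simulated data for 4 µg/mL against control (200 of 5903 genes changed, 3 rounds), the fit found 68.7% of changes of 1 and 96% of changes of 2 on the log2 scale.

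The genes named with values were the 6 largest rises and falls past the test at 4 µg/mL, the 2 highest and the lowest in TPM of each subunit, the 3 smallest p at 2 and at 1 µg/mL, *MRP8*, and the 2 smallest adjusted p of each list. *MRP20*, *MRPL39*, *RSM18*, *MRPL23*, *MRPL16*, *RSM19*, *MAM33* and *VAR1* were named after their values were seen. The members and lists were chosen with earlier results of these data known. Overlaps with other genes were found for *MRPL51* (76.4%), *MRPL19* (23.7%, same strand) and *MRP4* (0.2%). Near-identical copies (at least 90% identity over 75 bases, blastn 2.17.0) were found only at these overlaps. The alternatives were other normalizations, filters and tools, the 2 groups alone, a replicate block and each library left out.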

Additional observations from a re-analysis of the deposited data

Results flagged for a closer look

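*MRPL4* and *MRP20* differed between the concentrations, in that all libraries at 2 µg/mL were above, and all at 4 µg/mL below, every control library. The log2 fold change of 4 over 2 µg/mL was -0.75 for *MRPL4* and -0.50 for *MRP20* (edgeR adjusted p = 0.00329 and 0.0290). Passing edgeR's adjusted threshold for that difference was part of the rule that flagged them, so it lends no separate weight. Against control neither passed at 2 or at 4 µg/mL, and the share of all genes with this order was not counted. Only *MRPL4* passed for 4 over 2 µg/mL under all 20 alternative settings. Both genes encode proteins at the exit of the polypeptide tunnel, but not all such members had this order. *MRPL3*, whose protein lies close to that exit, rose at 4 µg/mL (0.83 over control). The values of 2 µg/mL replicate 3, the library farthest from its group, were the lowest of that condition for *MRPL4* and *MRP20*.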

How the results depend on the processing

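For 4 µg/mL over control, library totals alone gave 6 members higher and 4 lower, where 756 of all genes were higher and 1570 lower. The medians were 0.17 and 0.09 (large, small). RLE factors gave 1 lower and a small-subunit median of 0.32, DESeq2 a small-subunit median of 0.32, and limma-voom 4 lower and 0.25. Leaving out each library in turn gave 14 to 33 higher and 0 to 3 lower, with medians of 0.31 to 0.39 and 0.26 to 0.31. All 33 genes that rose kept their sign in the 20 alternatives. For 2 µg/mL limma-voom gave 10 higher and 1 lower, and leaving out libraries 0 to 1 higher, with medians of 0.10 to 0.19 and 0.08 to 0.17. For 1 µg/mL library totals alone gave medians of -0.09 and -0.05, and leaving out libraries 0.01 to 0.13 and 0.05 to 0.18. For 4 over 2 µg/mL library totals alone gave 6 higher, where 650 of all genes were higher, with medians of 0.07 and 0.00. With limma-voom 25 were higher and 7 lower, and the large-subunit median was 0.12. Leaving out libraries gave 1 to 16 higher and 1 to 4 lower, with medians of 0.16 to 0.25 and 0.11 to 0.17. The causes of these differences were not tested. All genes past the test were counted only for the main setting, library totals alone and RLE factors. For the subunit ratio, chosen after the data were seen, the difference was 0.001 without *MRPS16*, 0.074 without the 3 overlapping genes and 0.025 without *MRPS16* and *MRPL51*. Of 1360 values of the 17 named genes under alternatives, 1280 stayed on the same side of the threshold, 66 lost it and 14 gained it. None that had passed it changed sign, and changes of sign were not counted for values that had not passed.

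The replicate numbers are not said to mark a shared batch. Of 18 same-numbered pairs 6 had deviations correlated above 0.1 (range -0.351 to 0.242), and the samples were not paired by number. Such correlations, with libraries that stand apart from their group, cannot show that no batch was shared. With a replicate block 25 members were higher and 0 lower at 4 µg/mL over control, and 7 higher and 3 lower at 4 over 2 µg/mL. Members had at least 184 counts in every library, and the calls rest on 3 flasks per condition.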
